A study of Homo sapiens with 6 samples.

Results

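The Mediator genes are the 33 protein-coding genes whose symbol is MED followed by a number, with or without a final letter, together with CDK8, CDK19 and CCNC. The rule reads only the symbol and type of the 57905 gene identifiers in the count files, but was set with earlier results of these data known. All 33 genes passed the filter on low counts, which left 14398 genes to test. The RNA came from NCI-H929 (H929), an established human multiple myeloma cell line grown in medium with serum and antibiotics. Total RNA was incubated in a cleavage buffer in a tube, either without added enzyme (control, 3 libraries) or with a recombinant fragment of human ERN1/IRE1a (IRE1-treated, 3 libraries), and poly(A) RNA was then selected and sequenced. Both groups went through the same buffer, heat inactivation and cleanup, so the enzyme is the only labelled difference, and a purified enzyme fragment acting on naked RNA is a limited model of IRE1 in a cell.

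Mediator is a large complex that carries signals from DNA-bound transcription factors to RNA polymerase II at promoters. Its head and middle modules contact the polymerase, the tail meets most activators, the MED14 subunit runs through the complex as its backbone, and a separable kinase module made of CDK8 or CDK19, cyclin C, MED12 or MED12L, and MED13 or MED13L binds reversibly and blocks the polymerase from joining. IRE1 is an endoplasmic reticulum stress sensor whose RNase cuts XBP1 mRNA and other mRNAs, often at the letters CUGCAG in the loop of a hairpin.

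Because IRE1 is known for that motif, the first CUGCAG from the 5′ end that folded into a hairpin loop is printed here for 5 of the 6 lower Mediator genes that had one, with 9 bases on either side. The only site counted as a hairpin in BLOC1S1, a known IRE1 substrate, and that in MED28, a long transcript not lower, are shown for comparison. BLOC1S1 held 3 motifs, and the printed one begins at base 176 of the canonical transcript. Another, in exon 4 at base 448, did not count as a hairpin. By its own numbering, the paper places the BLOC1S1 cut further along the mRNA than the printed site. The printed site is therefore not shown to be the one that is cut. The exon 7 sites of CDK8 and CDK19, which lay in no such hairpin, show how alike the paralogs are there. Sequences are from the canonical GENCODE transcripts on GRCh37, written 5′ to 3′, and the capitals mark CUGCAG.
MED13L, exon 14 of 31, coding, chr12:116440868-116440873, minus strand: caaaaaugcCUGCAGuugggacag
MED13, exon 5 of 30, coding, chr17:60111163-60111168, minus strand: auucuuuagCUGCAGuagaaguuc
MED12L, exon 9 of 45, coding, chr3:150881770-150881775, plus strand: cuggaucugCUGCAGguggccccg
MED1, exon 17 of 17, 3′ UTR, chr17:37562077-37562082, minus strand: cagcuuuuuCUGCAGguuggaguc
MED14, exon 1 of 31, coding, chrX:40594538-40594543, minus strand: cggcggccgCUGCAGcugcggcua
MED28, exon 4 of 4, 3′ UTR, chr4:17626144-17626149, plus strand: cauuacauuCUGCAGuaaugaauc
BLOC1S1, exon 2 of 4, coding, chr12:56110741-56110746, plus strand: aggcuaucaCUGCAGcgaccugcc
CDK8, exon 7 of 13, coding, chr13:26967642-26967647, plus strand: ugggauuucCUGCAGauaaagauu
CDK19, exon 7 of 13, coding, chr6:110948205-110948210, minus strand: ugggguuucCUGCAGauaaagacu
The paralogs CDK8 and CDK19 carry the motif at the same place in exon 7, with nearly the same letters around it.

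The libraries held 19615715 to 25678499 counts on genes. By the chi-square of the counts per gene, IRE1-treated replicate 1 stood further from the other IRE1-treated libraries (7.17 and 11.1) than those did from each other (3.42), while control pairs gave 2.21 to 3.08. BLOC1S1, the check of the treatment, had 606, 583 and 649.8 normalized counts in the controls and 276, 230.1 and 211 after IRE1, which left 39.0% of the control mean. XBP1, which is cut at a short intron, kept 93.8% of its gene count, with 58466 to 61048 normalized counts in the controls and 54107 to 57305 after IRE1. These groups did not overlap, but the test did not pass (adjusted p = 0.143). It passed under scaling by library size (adjusted p = 0.00371) and with the trend of transcript length and GC content removed (adjusted p = 0.012). By exon, the paper reports clearly fewer XBP1 reads 5′ of the cleavage sites and similar reads in the 3′ exons. In its design, poly(A) selection loses only the 5′ fragment of a cut mRNA. A gene count that changed little therefore does not show that an mRNA was not cut. The 10 plasma cell markers checked summed to 268023 to 272763 normalized counts in the controls and 267613 to 286325 after IRE1, and 9 of 14 markers of other cell types stayed under 10 normalized counts in all libraries, with CD3E, a T cell gene, the highest of them at 898 to 1178. The 14 markers summed to 993 to 1034 in the controls and 1045 to 1277 after IRE1.

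After IRE1, 8 of the 33 Mediator mRNAs were lower and 4 were higher, and 21 did not pass the threshold (edgeR's quasi-likelihood test, two-sided, Benjamini-Hochberg adjusted p under 0.05 over all genes tested). The lower genes were MED13L, MED1, MED13, MED12L, CDK19, MED23, MED12 and MED14, and the higher ones were MED11, MED19, MED18 and MED6. Of all genes tested, 12.4% were called lower and 10.3% higher. Scaling by library size alone turned this split toward lower counts, with 9 lower and 1 higher among the Mediator genes and 2596 lower against 683 higher among all genes, where the scaling used here (TMM) gave 1781 and 1489. The median log2 fold change of the Mediator genes was 0.015, beside 0.0045 for all genes. In 10 Mediator genes every IRE1-treated library was below every control, a pattern held by 20.0% of all genes, and in 9 every IRE1-treated library was above, as in 19.1% of all genes.

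**Figure D1:**
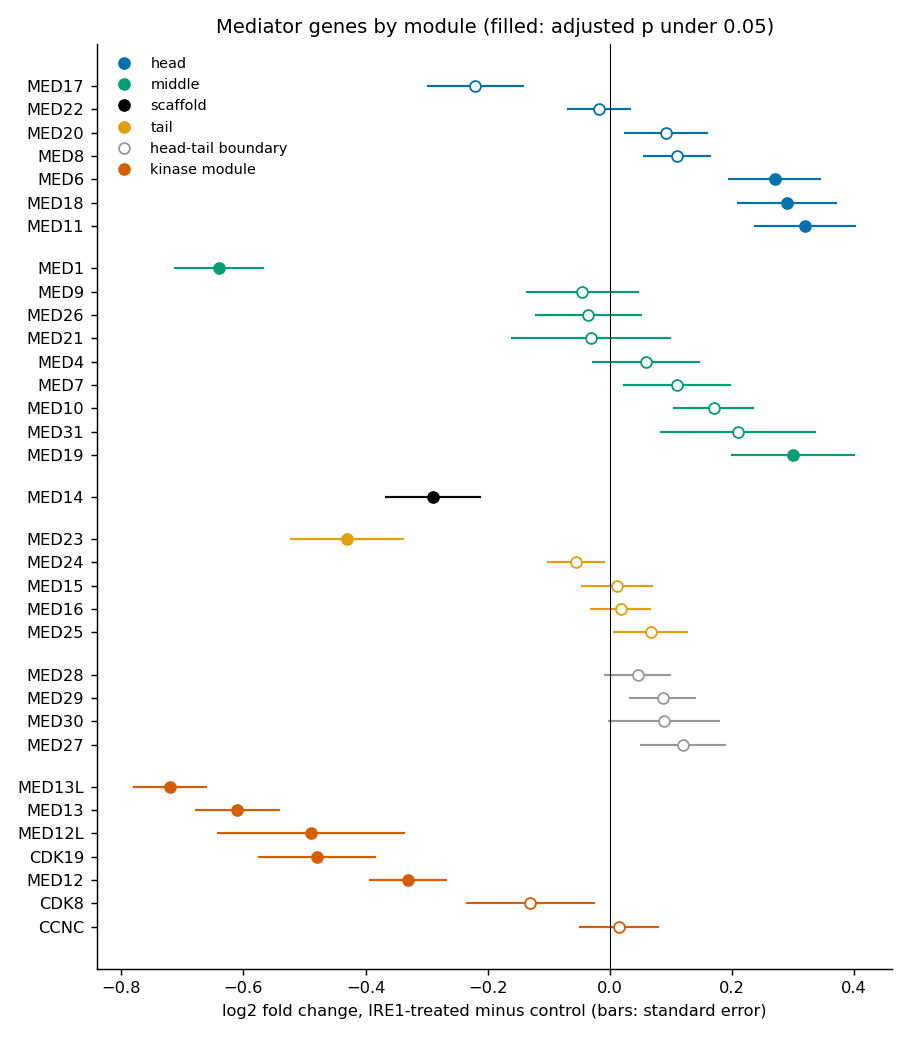
Log2 fold change (IRE1-treated minus control, x axis) of the 33 Mediator genes with its standard error, grouped by module, with filled points for adjusted p under 0.05. The kinase module holds 5 of the 8 lower genes, all 5 with a transcript over 5000 bases. MED6, MED18 and MED11 of the head lie to the right of 0.

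The kinase module had 5 of its 7 genes lower, with a median log2 fold change of -0.48. All 5 have a transcript over 5000 bases, a class in which 32.7% of protein-coding genes were lower. CDK8 and CCNC, the others, have 3065 and 2212 bases. With the trend of transcript length and GC content removed, MED12 and MED12L of the 5 no longer passed. MED13L, one of the paralogs that tether the kinase to the core complex, had 2227, 2195 and 2048 normalized counts in the 3 controls and 1214, 1292 and 1419 in the 3 IRE1-treated libraries. Every treated library was below every control, with 60.7% of the control mean left, a log2 fold change of -0.72 ± 0.0609 (SE) and adjusted p = 7.46e-06. Among the Mediator genes this was the lowest fold change in these data. Its paralog MED13 read 1077, 1053 and 971 in the controls and 671, 629 and 736 after IRE1. The groups were again apart, and MED13 kept 65.7% of its control mean (log2 fold change -0.61 ± 0.0699, adjusted p = 6.7e-05).

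MED12, which holds and activates the cyclin-dependent kinase, had 882, 918 and 913 normalized counts in the controls and 691, 698 and 769 after IRE1. It kept 79.6% of the control mean (log2 fold change -0.33 ± 0.0636, adjusted p = 0.00216), the smallest drop among the 5 lower genes of the module. MED12L, its paralog, was counted far less often, at 118, 107 and 89.4 in the controls and 69.5, 71.8 and 83.4 after IRE1. The groups did not overlap, but control replicate 3 and IRE1-treated replicate 3 were close, and the log2 fold change of -0.49 ± 0.154 (adjusted p = 0.0326) missed the threshold with DESeq2 and when any of 4 libraries was dropped, namely control replicates 1 and 2 and IRE1-treated replicates 1 and 2. Exons of MED12L are shared on the opposite strand with IGSF10 and P2RY12, and the strand setting of the counting was not given in the sources used here.

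CDK19, the less studied kinase of the module, had 275, 272 and 256 normalized counts in the controls and 201, 191 and 182 after IRE1, with no overlap. It kept 71.6% of the control mean (log2 fold change -0.48 ± 0.0964, adjusted p = 0.00252). CDK8, its paralog, had 223, 221 and 214 in the controls and 179, 201 and 221 after IRE1. Its treated libraries spread across the control range, and the log2 fold change of -0.13 ± 0.105 did not pass (adjusted p = 0.429). CCNC, which encodes their partner cyclin C, had 938, 938 and 853 in the controls and 986, 863 and 914 after IRE1, with overlapping groups and a log2 fold change of 0.015 ± 0.0662 (adjusted p = 0.897).

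The paralog pairs allow a comparison within each library, as the share of a pair's counts per kilobase of longest transcript. CDK19 took 37.1%, 37.1% and 36.4% of the CDK8 and CDK19 sum in the controls and 35.1%, 31.3% and 28.3% after IRE1. The mean share was 36.9% ± 0.377 in the controls and 31.6% ± 3.38 after IRE1 (SD, n = 3 each), and all treated libraries were below all controls (difference -5.31 percentage points, exact permutation test, two-sided, p = 0.1, the smallest p that 3 against 3 allows). MED13L took 68.6%, 68.8% and 69.1% of the MED13 and MED13L sum in the controls and 65.7%, 68.5% and 67.1% after IRE1. That difference was -1.75 points and also without overlap (exact permutation test, p = 0.1). The level of this share rested on the length used: per kilobase of all exons MED13L held 44.6% in the controls and 42.6% after IRE1, the smaller part of its pair, with a difference of -1.96 points. The share of MED12L in its pair was 9.68%, 8.52% and 7.26% in the controls and 7.44%, 7.60% and 7.98% after IRE1, so the groups overlapped (difference -0.816 points, exact permutation test, p = 0.4).

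**Figure D2:**
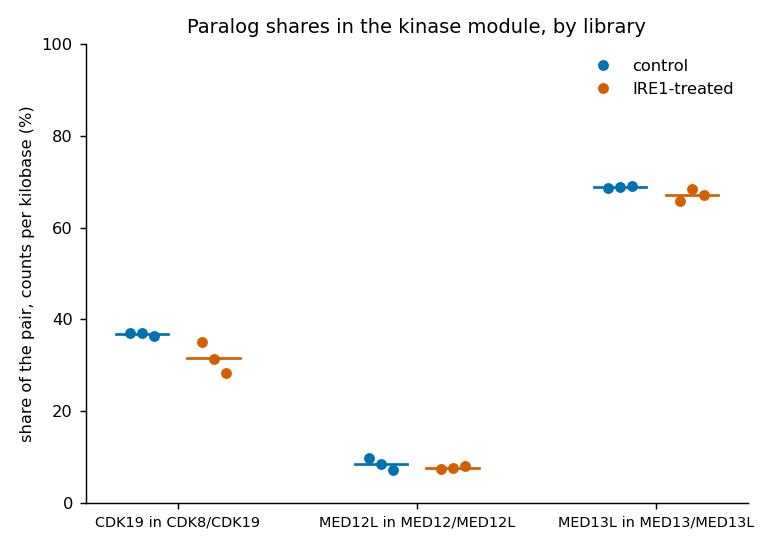
Share of 1 paralog in the summed counts per kilobase of its pair (y axis, percent, starting at 0), 1 point per library, with lines at the group means. The treated points of CDK19 lie at 28.3 to 35.1%, below the controls at 36.4 to 37.1%, and those of MED12L lie inside the control range.

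MED1 of the middle module, the subunit that nuclear receptors bind, had 1193, 1112 and 1042 normalized counts in the controls and 659, 702 and 789 after IRE1. Its groups were far apart, and it kept 64.2% of its control mean (log2 fold change -0.64 ± 0.0734, adjusted p = 6.7e-05). MED1 was the 1 lower gene among the 9 of the middle module, whose median log2 fold change was 0.059. MED19, a middle subunit near the hook of the complex, read 362, 371 and 368 in the controls and 538, 419 and 401 after IRE1. All treated libraries were above all controls, yet IRE1-treated replicate 1 stood well above the rest, and the log2 fold change of 0.30 ± 0.101 (adjusted p = 0.0441) passed in 1 of 6 leave-one-out fits, the one without IRE1-treated replicate 3. MED10 had 662, 636 and 633 in the controls and 774, 699 and 709 after IRE1, and MED31 had 95.4, 92.5 and 102 in the controls and 113, 112 and 109.6 after IRE1. Both are small conserved middle subunits, and in both the groups did not overlap while the test did not pass (adjusted p = 0.0704 for MED10 and 0.272 for MED31). MED4, MED7, MED9, MED21 and MED26 had log2 fold changes of -0.045 to 0.11, and their groups overlapped.

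MED14, the backbone of the complex, had 924, 913 and 826 normalized counts in the controls and 632, 756 and 781 after IRE1. It kept 81.4% of the control mean (log2 fold change -0.29 ± 0.0783, adjusted p = 0.0138), with IRE1-treated replicate 1 the lowest library. The call was lost without control replicate 1 or without control replicate 2. Exons of MED14 are shared with MED14OS on the opposite strand, and 1 pseudogene carries its name.

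In the tail, 1 of 5 genes was lower. MED23, which meets activators such as ELK1, had 573, 559.7 and 504 normalized counts in the controls and 342, 425 and 441 after IRE1. The groups were apart, with 73.8% of the control mean left (log2 fold change -0.43 ± 0.0932, adjusted p = 0.00401). The other tail genes lay close to no change, with log2 fold changes of -0.055 for MED24, 0.012 for MED15, 0.018 for MED16 and 0.067 for MED25. MED24, which sits beside MED23 in the complex, had 2465, 2588 and 2476 in the controls and 2425, 2452 and 2369 after IRE1. Its treated libraries were all below the controls, by a margin that did not pass the test (adjusted p = 0.445). The signs of MED15, MED16 and MED25 turned negative when libraries were scaled by size alone.

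The head held 3 of the 4 higher genes and no lower one, with a median log2 fold change of 0.11 over its 7 genes. Of the 3, MED11 and MED18 have transcripts under 2000 bases, a class in which 35.9% of protein-coding genes were higher. MED11, a small subunit that pairs with MED22, had 362, 319.8 and 371 normalized counts in the controls and 451, 446 and 419 after IRE1. It rose to 125% of the control mean (log2 fold change 0.32 ± 0.0837, adjusted p = 0.0123), and was not called without control replicate 2 or without IRE1-treated replicate 2. MED6, which links head and middle, had 425, 427 and 380.4 in the controls and 490.1, 500.3 and 499.6 after IRE1. The treated values lay within a narrow band above all controls (log2 fold change 0.27 ± 0.0761, adjusted p = 0.0176). MED18, of the movable jaw of the head, had 402, 416 and 413 in the controls and 528, 448 and 527 after IRE1. It was higher in all 3 treated libraries (log2 fold change 0.29 ± 0.0818, adjusted p = 0.0197). MED6, MED18 and MED19 were not called under scaling by library size alone, nor without control replicate 1, and the number of higher Mediator genes fell from 4 to 1 when any single control or IRE1-treated replicate 2 was left out.

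MED17, the central subunit of the head, was 1 of 2 head genes with a negative fold change, beside MED22 at -0.018. Its normalized counts were 1305, 1359 and 1302 in the controls and 953, 1177 and 1273 after IRE1. All treated libraries were below the controls, but the spread among them, from 953 to 1273, was wide, and the log2 fold change of -0.22 ± 0.0800 did not pass (adjusted p = 0.0619). It passed without IRE1-treated replicate 3, without the filter on low counts, with the replicate number as a block and under scaling by library size. MED17 shares exons with ENSG00000284057, RN7SL195P and snoU13 on its own strand and with TAF1D on the other. MED8 and MED20 had log2 fold changes of 0.11 and 0.092.

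The 4 subunits at the boundary of head and tail, MED27, MED28, MED29 and MED30, had log2 fold changes of 0.12, 0.046, 0.087 and 0.089, and none passed. MED28 had 1005, 990.3 and 1017 normalized counts in the controls and 1052, 1039 and 1021 after IRE1, which put the treated libraries just above the controls (adjusted p = 0.595). It has 8 named pseudogenes, among which reads could be split, and exons shared with FAM184B on the opposite strand.

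**Figure D3:**
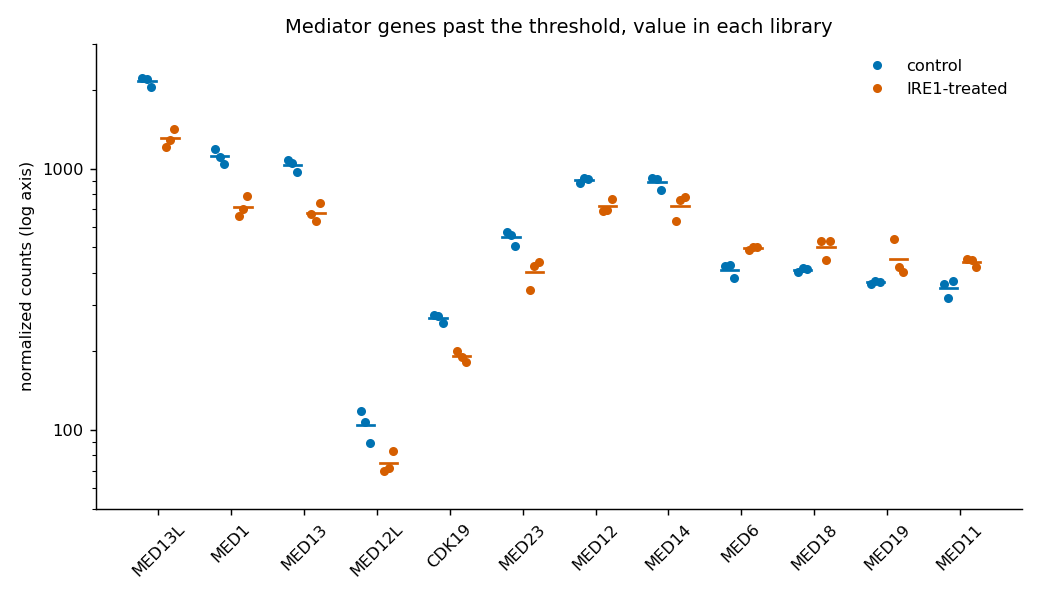
Normalized counts (log axis) of the 12 Mediator genes past the threshold, 1 point per library and lines at the group means, ordered from the lowest to the highest fold change. Control and IRE1-treated points do not overlap in any of the 12 genes, and MED13L runs from 2048 to 2227 in the controls against 1214 to 1419 after IRE1.

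The mRNAs of the complex range from 836 bases (MED11) to 10858 bases (MED28) in their longest annotated transcript, and the calls followed that range. All 8 lower genes were among the 10 with a transcript over 5000 bases, where the median log2 fold change was -0.46. The exceptions were MED17 and MED28. None of the 7 genes under 2000 bases was lower and 3 were higher, with a median of 0.21, and of the 16 genes from 2000 to 5000 bases 1 was higher (MED6), with a median of 0.017. The same order held in the background, as 32.7% of protein-coding genes over 5000 bases were lower, 5.87% of those from 2000 to 5000 and 0.106% of those under 2000, with median log2 fold changes of -0.17, 0.020 and 0.18. In the other direction 2.95%, 9.35% and 35.9% were higher.

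Across genes, Spearman's correlation between transcript length and log2 fold change was -0.85 for the 33 Mediator genes and -0.58 for 12225 protein-coding genes, as a description, since genes share the 6 libraries and are not replicates. Without MED28 it was -0.90. With coding length in place of transcript length the correlation was -0.73 for the Mediator genes. The coding part of MED28 is 534 of its 10858 bases. GC content went with the fold change less closely, at 0.091 for the Mediator genes and 0.24 for the protein-coding genes.

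**Figure D4:**
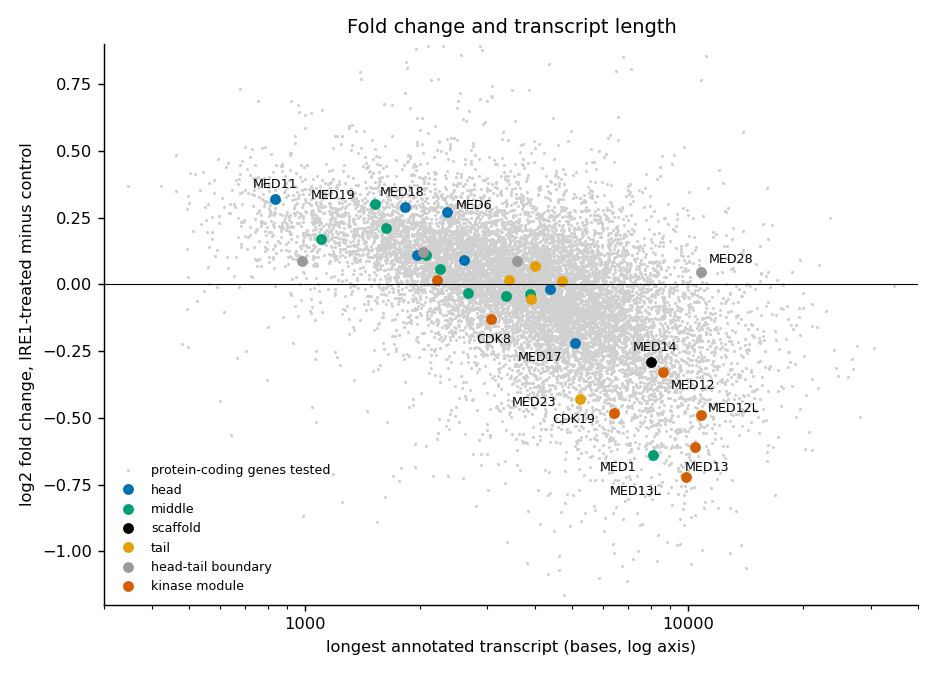
Log2 fold change (y axis) against the length of the longest annotated transcript (x axis, log scale) for the 33 Mediator genes in the colour of their module, over the protein-coding genes tested in grey. MED11 with 836 bases lies at 0.32, MED13L with 9885 bases at -0.72, and MED28 with 10858 bases apart from the other long transcripts at 0.046.

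When the trend of the counts with transcript length and GC content was removed from each library, 5 Mediator genes were still called lower, MED13L, MED1, MED13, CDK19 and MED23, beside 5.09% of all genes. MED12, MED12L and MED14 no longer passed. MED6 remained higher, MED11, MED18 and MED19 did not pass, and MED28 became a higher gene, with a log2 fold change of 0.32 (adjusted p = 0.00334), where 8.85% of all genes were called higher. Over all genes the split in this fit was 733 lower against 1274 higher. The correlation with length was still -0.54 for the Mediator genes and -0.082 for the protein-coding genes. With the replicate number as a block as well, CDK19 and MED6 were also lost. That left 4 lower Mediator genes and MED28 as the 1 higher gene.

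The motif CUGCAG, which reads the same on both strands, was present in the canonical transcript of 28 of the 33 Mediator genes (84.8%), beside 85.3% of 12182 protein-coding transcripts. A predicted hairpin, whose loop had 5 to 11 bases and contained the unpaired first G of the motif, and whose stem had 3 pairs or more, held it in 17 Mediator genes (51.5%), beside 35.5% of all and 52.6% of those over 5000 bases. All 8 lower Mediator genes held the motif, as did 96.6% of the protein-coding transcripts over 5000 bases. Its density in the 8 was 0.881 per kilobase, beside 0.732 in those long transcripts and 0.806 in all protein-coding transcripts. In 6 of the 8 lower genes it lay in a hairpin, MED12 and the 5 whose sites are printed. Of their 13 hairpin sites, 10 lay in coding sequence and 3 in a 3′ UTR. MED12, with 4 of them, had more than any other lower gene, and MED23 and CDK19 had none. The 4 higher genes held 2 motifs in all, with 1 in a hairpin (MED19), and the 21 others held 53 motifs at 0.844 per kilobase and 11 in hairpins. MED28 has its printed hairpin with the longest stem of those shown, 9 pairs, and was not lower. The site match is a description of letters and a computed fold, not of cutting. In the known substrates, the search found 0 motifs in the canonical transcript of XBP1, the only XBP1 transcript searched. The paper's background says that XBP1 mRNA also carries the motif in a stem-loop. Whether the searched transcript still holds the intron that IRE1 removes was not checked, so the 0 does not show that XBP1 lacks the motif. The search counted the exon 2 motif of BLOC1S1 as a hairpin but not the exon 4 motif (loop of 4 bases, stem of 1 pair). The hairpin counts can therefore miss sites that are cut. A count of none, as for MED23 and CDK19, does not show that such a site is absent.

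Levels per kilobase of the longest transcript, which allow genes to be compared with each other, spanned 76.6-fold in the controls around a median of 207 normalized counts per kilobase. The highest was MED16, a tail subunit, at 734, 726 and 772 in the 3 controls. MED24 followed at 633, 664 and 635, and MED8 of the head at 636, 596 and 641, so MED16 stood above the next gene in every control while MED24 and MED8 overlapped. The lowest levels per kilobase were those of CDK19 (42.9, 42.5 and 40.0), MED21 (38.6, 42.2 and 38.1) and MED12L (11, 9.91 and 8.29). CDK19 and MED21 could not be ranked in every library, and MED12L was below both. Of the 32 neighbours in this order, 17 were apart in every control. The ranks depend on the length: per kilobase of all exons MED16 was still the highest (603), but MED8 (454) and MED29 (420) came before MED24 (361), while CDK19, MED21 and MED12L were again the lowest. After IRE1 the level of MED13L was 132 ± 10.5 per kilobase (SD, n = 3), from 218 ± 9.67, and that of MED11 525 ± 20.5, from 420 ± 32.6.

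**Figure D5:**
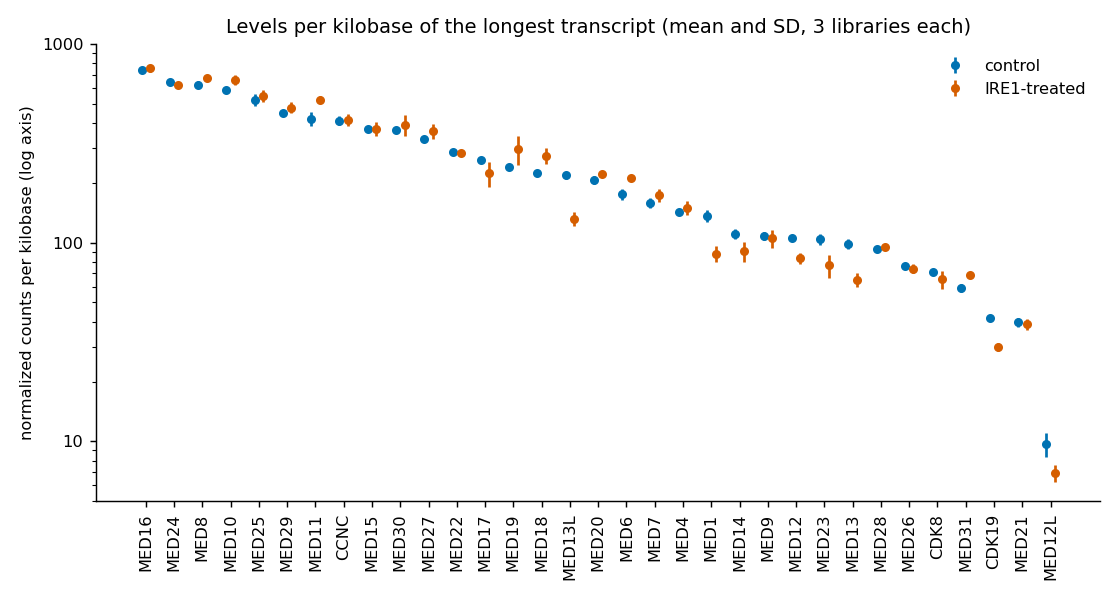
Normalized counts per kilobase of longest transcript (log axis) of the 33 Mediator genes, as mean and SD of the 3 controls and 3 IRE1-treated libraries, ordered by the control mean. The genes run from 744 for MED16 to 9.72 for MED12L, and the treated points of MED13L, MED1, MED13 and CDK19 lie below their controls.

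The machinery that Mediator works with, RNA polymerase II and the general transcription factors, was measured in 44 of 45 listed genes, and 6 were lower and 14 higher, with a median log2 fold change of 0.099. Among all genes 12.4% were lower and 10.3% higher. Scaling by library size alone gave 7 lower and 5 higher. Among the 12 subunits of the polymerase, the large catalytic subunit POLR2A was lower (log2 fold change -0.15, adjusted p = 0.042) and 6 other subunits were higher, led by POLR2F (0.32) and POLR2J (0.29). Of 17 genes for TFIIA, TFIIB, TFIIE, TFIIF and TFIIH, GTF2A1 was lower (-0.39) and 5 were higher, with GTF2F2 (0.32) and the CDK7 assembly factor MNAT1 (0.24) among them. TFIID had 4 lower genes of 15, with TAF4B at -0.28 and the largest subunit TAF1 at -0.27, and 3 higher, with TAF10 at 0.28 and TAF12 at 0.26. With the trend of length and GC content removed, 1 of these genes was lower and 9 were higher, beside 5.09% and 8.85% of all genes. POLR2A then stood at -0.012 on the log2 scale (adjusted p = 0.916), and POLR2J, TAF4B and TAF1 did not pass either. The POLR2A call held in 1 of 6 leave-one-out fits, the one without IRE1-treated replicate 1, and was lost with the replicate block. POLR2J passed in 2 of 6 such fits, TAF4B and TAF12 in 3, and TAF1 and TAF10 in 4. POLR2F, GTF2A1, GTF2F2 and MNAT1 passed in all 6.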

How the data were processed

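Libraries were made with a stranded poly(A) kit from H929 RNA, with 1 lane per sample. Per the submitters' processing notes, the authors used cutadapt 1.12, STAR 2.5.3a, HTSeq 0.6.1p1 and edgeR 3.24.3, on GRCh37 with Ensembl release 87. They deposited raw counts per gene, and a table of CPM normalized by the authors that was used only in an alternative. Summary lines that name no gene, 21.4 to 23.2% of each file, were left out. Total counts on genes limit the precision, most for low genes such as MED12L.

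Counts were analysed with edgeR 4.0.16 (R 4.3.3): its filter on low counts, TMM, the quasi-likelihood test without covariates, and Benjamini-Hochberg adjustment with a threshold of 0.05. Normalized counts are at the scale of the mean library. SE is the standard error of the log2 fold change. The study's own test was on exon counts, which were not used here. The samples of each group are numbered replicates from 1 cell line, and p-values measure the spread between these samples. The paper does not say whether they came from separate cultures or RNA preparations. Gene structures came from GENCODE release 44 on GRCh37, which named 55538 identifiers, and TAF9 was not matched. CUGCAG was searched in canonical transcripts and folded with ViennaRNA 2.7.2, with 15 bases on either side. The site sequence of MED12 is not reported here. The fit was tested on simulated data without a trend with length. There 99 of 100 genes changed 2-fold and 86 of 100 changed 1.41-fold were called, with 11 unchanged genes, among 14398 genes in all. As the real counts have such a trend, these numbers do not give the error of the fit on them.

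All Mediator genes could be named, with values per sample for called genes, paralogs and the 3 highest and lowest levels, and MED10, MED31, MED17, MED24 and MED28 were added after their values were seen. Of the other lists, the 2 lowest and 2 highest called genes were named. The members and lists were chosen with earlier results of these data known. Alternatives were DESeq2 1.42.0, library size, upper quartile scaling, no filter, at least 10 counts in every library, limma 3.58.1 on log2 (CPM + 1), a replicate block, removal of a loess trend with length and GC content (span 0.5), both together, leaving out each library, and the length of all exons. Coding length and the counts for the other lists under each alternative were added after seeing the data.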

Additional observations from a re-analysis of the deposited data

How the results depend on the processing

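Of the 12 called Mediator genes, the calls of 11 held with DESeq2, 12 with upper quartile scaling, no filter, a count minimum of 10 or limma on the CPM, and 9 with library size alone. Lower Mediator genes numbered 5 with the length and GC trend removed, 4 with that and the replicate block, and 6 to 9 with a library left out. Higher ones numbered 2, 1 and 1 to 5, and 1 with library size. Calls over all genes fell from 3270 to 2007 and 1704, and ran from 1630 to 4312 with a library left out. They numbered 1681 and 1630 when control replicate 1 or 2 was dropped and 1982 when IRE1-treated replicate 2 was. For the polymerase and general factor genes, 20 calls became 10, 9, 12 with library size, and 7 to 21 with a library left out (10, 7 and 11 for control replicates 1, 2 and 3, and 12 for IRE1-treated replicate 2). Spearman's correlation with length was -0.73 with coding length, -0.54 with the trend removed, with or without the block, and -0.85 to -0.78 with a library left out. The median log2 fold change was -0.061 with library size, which moved the median of all genes to -0.071. The median level became 125 per kilobase of all exons.

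No pairing by replicate number was seen, as same-numbered libraries correlated at -0.0358, -0.00505 and -0.112. These values were centred within each group of 3 libraries, so they cannot show whether a control and a treated sample shared an RNA preparation. With the replicate block, 8 Mediator genes were lower and 4 higher, 2613 genes were called in all, MED12L was lost and MED17 gained.

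Signs turned for genes that were not called. With the trend removed CCNC had a log2 fold change of -0.024, MED22 0.015 and MED30 -0.075, and with the block as well -0.021, 0.016 and -0.075. With library size CCNC had -0.061, MED15 -0.065, MED16 -0.058, MED25 -0.0093, MED28 -0.029 and MED4 -0.017. With a library left out the ranges were -0.032 to 0.060 for CCNC, -0.042 to 0.077 for MED15, -0.011 to 0.048 for MED16, -0.071 to 0.016 for MED21, -0.068 to 0.0035 for MED26, -0.0073 to 0.16 for MED30, -0.00045 to 0.11 for MED4 and -0.14 to 0.0076 for MED9. The cause of these shifts was not tested. Leaving out a library lowers the number of samples. MED12L, MED21 and MED31, the Mediator genes with the fewest counts, had the largest standard errors.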
